A study of Mus musculus with 2 samples.

Results

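The chaperone genes of the mouse adrenal gland were taken by symbol: the protein-coding genes of the Hspa, Hspb, Hspd, Hspe, Hsph and Hsp90 groups, the Dnaja, Dnajb and Dnajc groups, Cct2 to Cct8 and Tcp1. The rule took 81 protein-coding symbols in the GENCODE M21 annotation, and 80 of them had a row in both gene tables, of 43346 mouse genes listed in all and 21474 protein-coding ones. Hspa14 was not analysed here, because its current identifier matched no row. Cct6a, a subunit of the cytosolic chaperonin, is typed as a processed transcript in that annotation and so was not a member; it is given separately. The gland came from adult C57BL/6J mice, 8 weeks old, and the labels describe littermates of mixed sex. The labels name no treatment. There was 1 group with 2 libraries, called biological replicates 1 and 2, of poly(A) RNA above 200 nt read as stranded pairs of 76 nt.

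Molecular chaperones bind unfolded stretches of other proteins and keep them from clumping until they fold, cross a membrane or are handed to degradation. HSP70 proteins do this in cycles of ATP hydrolysis that J-domain (DNAJ) proteins start and nucleotide exchange factors end; HSP90 acts on clients that are nearly folded, among them the glucocorticoid receptor and other steroid receptors; chaperonins enclose a client in a chamber; small heat shock proteins hold clients without using ATP. Most cells express the constitutive members at high levels, and heat or proteotoxic stress induces others through the transcription factor HSF1. In the adrenal gland the cortex imports cholesterol into mitochondria to make steroids, and the medulla packs catecholamines into secretory vesicles, processes in which mitochondrial and vesicle J-proteins have their own places.

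Summed expected counts were 48059863 for replicate 1 and 53294872 for replicate 2, and the libraries were scaled for comparison with trimmed-mean (TMM) factors that left an effective size ratio of 1.11, replicate 2 over replicate 1. The libraries were not alike in sex-linked RNA: Kdm5d, Eif2s3y, Ddx3y and Uty, on the Y chromosome, had 221, 79, 32 and 26 counts in replicate 1 and 0 counts each in replicate 2, and Xist had 5.70 TPM in replicate 1 and 12.9 TPM in replicate 2. Replicate 2 thus held no reads of these Y-linked genes, although the label describes mixed sex. With 1 library on each side, differences between the libraries given below cannot be told apart from a difference in sex make-up. All 10 markers of the steroid-producing cortex and all 9 of the chromaffin cells were detected at 1 TPM or more in both libraries. Both libraries carry the same donor record, and the sources used here do not give the number of animals behind each, so an SD over them measures the spread between these samples, which may be technical in part. In whole tissue, fewer cells of a type and less RNA per cell cannot be told apart.

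Chaperone genes were broadly expressed. Of the 80 members, 64 were detected, defined as 1 TPM or more in both libraries, against 11718 of the 21474 protein-coding genes (TPM is a level per unit of length, scaled to a total of 1000000 transcripts). The median member had a mean level of 13.6 TPM, against 2.11 TPM over all protein-coding genes. Together the members held 0.600% of all TPM outside spike-ins in replicate 1 and 0.700% in replicate 2, a mean of 0.650% ± 0.0708 (SD, n = 2). The level was concentrated in a few genes: Hspa8, Hspa5 and Hspb1 held 58.5% of the members' TPM in replicate 1 and 60.7% in replicate 2. In both libraries, 7 members stood above 100 TPM and 42 above 10 TPM.

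**Figure D1:**
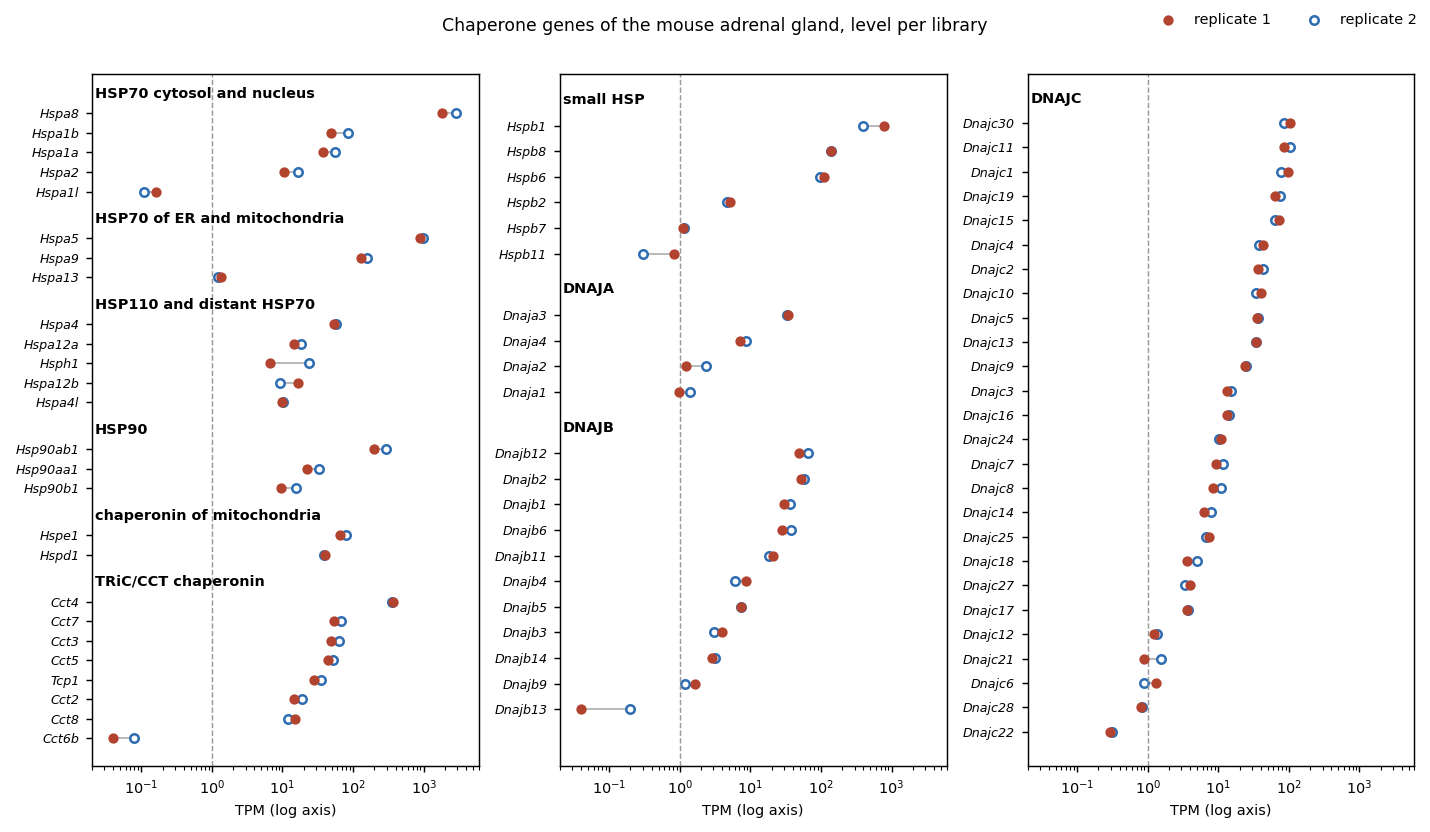
Level of each chaperone gene with TPM above 0 in both libraries (x axis, TPM on a log axis), grouped by family, with filled points for replicate 1, open points for replicate 2 and a dashed line at 1 TPM. Points of a pair lie close together for most genes; Hspa8 leads with 1811 TPM in replicate 1 and 2836 TPM in replicate 2, and Hspb1, Hsph1 and Hspb11 show wide gaps.

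By TPM over all transcripts, the cytosolic and nuclear HSP70 genes had the highest summed level of the families, 1908 TPM in replicate 1 and 2992 TPM in replicate 2. Hspa8, the constitutive HSP70 (ENSMUSG00000015656.12, mm10 chromosome 9, 40800984 to 40810087, plus strand), had 1811 TPM in replicate 1 and 2836 TPM in replicate 2, a mean of 2324 ± 725 TPM (SD, n = 2), above 99.8% of protein-coding genes. Hspa8 thus made up nearly all of the family level in each library, and its level was lower in replicate 1. On transcripts typed as coding, Hspa8 had only 48.8 TPM in replicate 1 and 76.9 TPM in replicate 2. Hspb1, of the small heat shock proteins, had 783 TPM in replicate 1 and 389.5 TPM in replicate 2 on such transcripts. The lead of the HSP70 family therefore did not hold on coding transcripts alone. Hspa1b, the stress-inducible HSP70 (ENSMUSG00000090877.3, chromosome 17, 34956436 to 34959238, minus strand), had 48.7 TPM in replicate 1 and 84.9 TPM in replicate 2. Hspa1a, its close copy (ENSMUSG00000091971.3, chromosome 17, 34969190 to 34972156, minus strand), had 37.2 TPM in replicate 1 and 54.6 TPM in replicate 2. Both inducible genes were therefore well above the detection limit in animals with no named treatment, and both were lower in replicate 1. Hspa2, a member best known for its role in male germ cells, had 10.6 TPM in replicate 1 and 16.3 TPM in replicate 2. Hspa1l, another testis-enriched HSP70, had 0.16 TPM in replicate 1 and 0.11 TPM in replicate 2, under the detection limit in both.

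The inducible copies cannot be cleanly separated by short reads. Their genes lie 9951 bases apart on the same strand, their longest open reading frames are 1926 bases (Hspa1a) and 1929 bases (Hspa1b), and 1890 bases were identical without gaps (98.1%). The expected counts of both were fractional, so the 3589 and 5638 counts of Hspa1a, in replicate 1 and replicate 2, and the 4418 and 8258 counts of Hspa1b are the authors' division of shared reads. The sequence before the start sites is as alike as the coding part, 247 of 250 bases (98.8%). The 120 bases before each start are shown because they are nearly the same for both genes; they are from RefSeq on GRCm38.p6, chr17:34972157-34972276 for Hspa1a and chr17:34959239-34959358 for Hspa1b, minus strand, and the capital marks the single base that differs.
Hspa1a: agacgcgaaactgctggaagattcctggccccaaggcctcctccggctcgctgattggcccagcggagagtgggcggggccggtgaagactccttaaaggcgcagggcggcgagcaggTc
Hspa1b: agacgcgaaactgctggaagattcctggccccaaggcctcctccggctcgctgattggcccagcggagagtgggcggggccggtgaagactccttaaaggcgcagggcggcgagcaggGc

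Among the HSP70 genes of organelles, Hspa5 (ENSMUSG00000026864.9, chromosome 2, 34771970 to 34777547, plus strand), which encodes the ER chaperone BiP, had 873 TPM in replicate 1 and 987 TPM in replicate 2, a mean of 930 ± 80.8 TPM. Hspa9, the mitochondrial HSP70 that pulls imported proteins into the matrix, had 129 TPM in replicate 1 and 156 TPM in replicate 2. Hspa13, a microsomal relative, was just above the limit, with 1.36 TPM in replicate 1 and 1.21 TPM in replicate 2. The family summed to 1003 TPM in replicate 1 and 1144 TPM in replicate 2, and its order was the same in both.

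The exchange factors and distant relatives were at moderate levels. Hspa4, an HSP110 that reloads HSP70 with ATP, had 54.3 TPM in replicate 1 and 56.6 TPM in replicate 2, and was the steadiest of the group. Hspa4l, its paralogue, had 9.87 TPM in replicate 1 and 10.3 TPM in replicate 2. Hsph1, the HSP105 exchange factor (ENSMUSG00000029657.11), had 6.75 TPM in replicate 1 and 23.9 TPM in replicate 2, the widest relative gap in TPM among the detected members. Hspa12a, a distant HSP70 relative, had 14.4 TPM in replicate 1 and 18.4 TPM in replicate 2, and Hspa12b, which endothelial cells are known to express, had 16.4 TPM in replicate 1 and 9.29 TPM in replicate 2.

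The Hsph1 gap in TPM rested on a short transcript. By scaled counts Hsph1 differed by a log2 ratio of -0.63, replicate 1 over replicate 2, and by TPM of -1.82. A transcript of 416 nt that is not in M21 carried 1.96 TPM in replicate 1 and 16.9 TPM in replicate 2, from 14.97 and 144.5 counts. Its annotated coding transcript of 3802 nt had 2.32 TPM in replicate 1 and 3.42 TPM in replicate 2. No other tested member differed by more than 0.5 between its TPM and count ratios.

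All 3 HSP90 genes were detected, with a summed level of 231 TPM in replicate 1 and 337 TPM in replicate 2. Hsp90ab1, the constitutive cytosolic form (ENSMUSG00000023944.10, chromosome 17, 45567775 to 45573271, minus strand), had 199 TPM in replicate 1 and 288 TPM in replicate 2. Hsp90aa1, the inducible cytosolic form, had 22.5 TPM in replicate 1 and 33.1 TPM in replicate 2. The level of the constitutive form was 8.84 times that of the inducible one in replicate 1 and 8.70 times in replicate 2. Hsp90b1, the ER form GRP94, had 9.61 TPM in replicate 1 and 15.4 TPM in replicate 2, and BiP, its partner in the ER, stood by TPM at 90.8 times that level in replicate 1 and 64.0 times in replicate 2.

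The mitochondrial chaperonin is a chamber of HSP60 closed by a lid of HSP10. Hspe1, the lid, had 64.6 TPM in replicate 1 and 80.5 TPM in replicate 2. Hspd1, the chamber, had 40.3 TPM in replicate 1 and 38.6 TPM in replicate 2. The chamber's level was thus 0.625 times the lid's in replicate 1 and 0.479 times in replicate 2. These genes stand head to head on chromosome 1 and their M21 records overlap by 112 bases; the sources used here do not say whether the counting used strand.

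The cytosolic chaperonin TRiC, which folds actin and tubulin, summed to 569 TPM in replicate 1 and 600.3 TPM in replicate 2. Cct4 led by a wide margin (ENSMUSG00000007739.6, chromosome 11, 22990519 to 23003780, plus strand), with 364 TPM in replicate 1 and 351 TPM in replicate 2. Cct7 had 53.8 TPM in replicate 1 and 66.9 TPM in replicate 2, and Cct3 had 49.0 TPM in replicate 1 and 64.2 TPM in replicate 2. Cct5, Tcp1, Cct2 and Cct8 had means of 48.3, 31.6, 16.9 and 13.5 TPM, and the range of Cct3 over the libraries overlapped that of Cct7 and that of Cct5. TRiC holds its subunits in equal number, and the highest of the 7 detected members was 24.8 times the lowest in replicate 1 and 29.2 times in replicate 2 by TPM. Cct6a, the remaining subunit and not a member, had 3.30 TPM in replicate 1 and 4.29 TPM in replicate 2. Cct6b, a testis form, had 2 counts in replicate 1 and 5 in replicate 2, and Cct8l1 had 0 counts in both.

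Small heat shock proteins with Hspb symbols, the only ones that the symbol rule takes, summed to 1039 TPM in replicate 1 and 630.1 TPM in replicate 2. Hspb1, which encodes the mouse form of HSP27 (ENSMUSG00000004951.10, chromosome 5, 135887919 to 135889563, plus strand), had 783 TPM in replicate 1 and 389.5 TPM in replicate 2, a mean of 586 ± 278 TPM (SD, n = 2). Hspb8, which works with the co-chaperone BAG3 in selective autophagy, had 138 TPM in replicate 1 and 139 TPM in replicate 2. Hspb6, the HSP20 protein of smooth muscle and other tissues, had 111 TPM in replicate 1 and 95.5 TPM in replicate 2. Hspb1 therefore held most of the family's difference between libraries, while Hspb8 was level in both. Hspb2, a muscle form, had 5.09 TPM in replicate 1 and 4.70 TPM in replicate 2, where the records of Hspb2 and Cryab overlap by 1030 bases. Hspb7, a heart form, had 1.11 TPM in replicate 1 and 1.16 TPM in replicate 2. Hspb11, a component of intraflagellar transport, had 16 counts in replicate 1 and 6 in replicate 2, under 1 TPM in both. Hspb3 and Hspb9 had 0 counts in both.

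**Figure D2:**
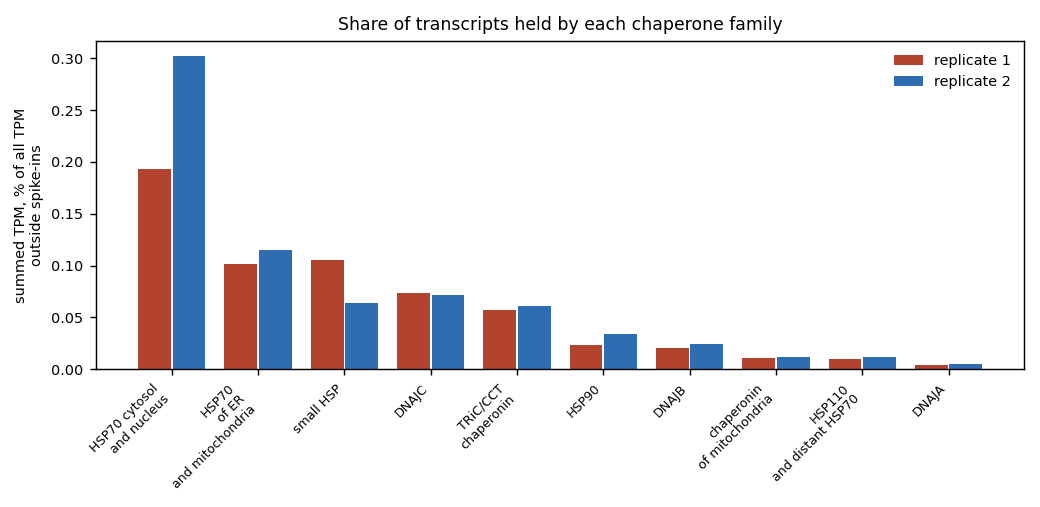
Summed TPM of each chaperone family as a percentage of all TPM outside spike-ins (y axis), with replicate 1 on the left and replicate 2 on the right of each pair. Cytosolic HSP70 is the tallest pair by TPM, lower in replicate 1 at 1908 TPM than in replicate 2 at 2992 TPM. Small heat shock proteins (Hspb symbols only) are higher in replicate 1. The sums include transcripts typed as non-coding, which held 97.3% of the Hspa8 TPM in each library. No error bar is drawn because each bar is 1 library.

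The DNAJA proteins, partners of HSP70 with the full bacterial DnaJ layout, were the lowest family in sum, with 43.1 TPM in replicate 1 and 45.2 TPM in replicate 2. Dnaja3, the mitochondrial form, had 33.7 TPM in replicate 1 and 33.0 TPM in replicate 2. Dnaja4 had 7.21 TPM in replicate 1 and 8.54 TPM in replicate 2. The main cytosolic forms were near the detection limit: Dnaja2 had 1.22 TPM in replicate 1 and 2.33 TPM in replicate 2, and Dnaja1 had 0.98 TPM in replicate 1 and 1.38 TPM in replicate 2. Both are lower in GC than the median member (48.8%), at 42.6% for Dnaja2 and 41.2% for Dnaja1; whether base composition lowered their counts was not tested.

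The DNAJB family summed to 205 TPM in replicate 1 and 237 TPM in replicate 2, with 10 of 13 members detected. Dnajb12, anchored in the ER membrane, had 48.4 TPM in replicate 1 and 65.1 TPM in replicate 2. Dnajb2, a ubiquitin-binding J-protein known from neurons, had 53.0 TPM in replicate 1 and 58.0 TPM in replicate 2. Dnajb1, the heat-inducible HSP40, had 29.6 TPM in replicate 1 and 36.6 TPM in replicate 2, and these values overlapped the range of Dnajb6, which blocks aggregation, with 28.3 TPM in replicate 1 and 37.6 TPM in replicate 2. Within this family the ER lumen partners of BiP were lower. Dnajb11 had 21.2 TPM in replicate 1 and 18.2 TPM in replicate 2, and Dnajb9 had 1.67 TPM in replicate 1 and 1.19 TPM in replicate 2. Dnajb4, Dnajb5, Dnajb3 and Dnajb14 had means between 2.98 and 7.44 TPM. Dnajb13, a part of sperm flagella and motile cilia, had 1 count in replicate 1 and 7 in replicate 2, and Dnajb7 and Dnajb8 had 0 counts in both.

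The DNAJC family, in which the J-domain is attached to proteins of very different jobs, was the largest with 28 members, 22 of them detected, and it summed to 723 TPM in replicate 1 and 712 TPM in replicate 2. The highest members by TPM were mitochondrial or of the ER. Dnajc30, a mitochondrial protein, had 105 TPM in replicate 1 and 84.7 TPM in replicate 2. Dnajc11, which associates with the complex that shapes mitochondrial cristae, had 84.4 TPM in replicate 1 and 105 TPM in replicate 2. Dnajc1, an ER membrane J-protein that binds ribosomes, had 96.8 TPM in replicate 1 and 77.4 TPM in replicate 2. The TPM order of these 3 differed between the libraries, so TPM does not rank them. On the coding-length scale defined below, their order was the same in both. Dnajc30 had 152 in replicate 1 and 123 in replicate 2, Dnajc11 had 72.4 and 87.5, and Dnajc1 had 28.5 and 28.8. On that scale Dnajc1 (mean 28.7) was below Dnajc19 (mean 78.5). Dnajc19 and Dnajc15, inner membrane partners of the mitochondrial import motor, had means of 70.1 and 68.9 TPM, within each other's range.

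Further DNAJC members were spread over the cell. Dnajc10, the ER disulfide reductase ERdj5, had 40.5 TPM in replicate 1 and 34.3 TPM in replicate 2. Dnajc5, the cysteine string protein of secretory vesicles, had 35.8 TPM in replicate 1 and 36.0 TPM in replicate 2. Dnajc3, an ER inhibitor of the kinase PERK, had 13.2 TPM in replicate 1 and 15.3 TPM in replicate 2. Dnajc4, Dnajc2 (a ribosome-bound partner), Dnajc13 (of endosomes) and Dnajc9 (a histone chaperone) had means of 40.5, 39.6, 34.2 and 24.5 TPM. Dnajc16, Dnajc24, Dnajc7, Dnajc8, Dnajc14, Dnajc25, Dnajc18, Dnajc27 and Dnajc17 ran between means of 13.8 and 3.64 TPM. Dnajc12, which binds aromatic amino acid hydroxylases such as tyrosine hydroxylase, had 1.24 TPM in replicate 1 and 1.35 TPM in replicate 2. Dnajc21 and Dnajc6 passed 1 TPM in 1 library each: Dnajc21, of ribosome assembly, had 0.89 TPM in replicate 1 and 1.54 TPM in replicate 2, and Dnajc6, the clathrin uncoating factor auxilin, had 1.33 TPM in replicate 1 and 0.90 TPM in replicate 2.

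The members below 1 TPM in both libraries numbered 13. Of these, 7 had 0 counts in both (Hspb3, Hspb9, Dnajb7, Dnajb8, Dnajc5b, Dnajc5g and Cct8l1), where a count of 0 allows up to 3 counts per library. The other members were Hspa1l, Hspb11, Cct6b, Dnajb13, Dnajc22 and Dnajc28, between 0.06 and 0.82 TPM on average. Several are known from testis or ciliated cells. The 8 markers listed for those cells summed to 0.60 TPM in replicate 1 and 0.57 TPM in replicate 2, none of them was detected, and Prm1, Tnp1 and Sycp3 were at 0 counts in both.

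The TPM order depends on which transcripts the reads were given to. In 12 of the 64 detected members (18.8%), over 50% of the TPM in each library lay on transcripts typed as non-coding in M21 (retained intron, processed transcript or nonsense-mediated decay), against 13.2% of 11654 other detected protein-coding genes. They were Hspa8, Hspa5, Cct4, Cct3, Dnajb4, Dnajc1, Dnajc5, Dnajc7, Dnajc10, Dnajc11, Dnajc15 and Dnajc24. The share was 97.3% for Hspa8, 93.8% for Hspa5 and 98.6% for Cct4 in replicate 1, and 97.3%, 93.9% and 98.6% for the same genes in replicate 2. The leading transcripts of these 3 genes are short, so a given number of reads yields a high TPM, whereas that of Dnajc5 has 3728 nt. For Hspa8, Hspa5 and Cct4 the reads too were mostly given to non-coding transcripts. In replicate 1, coding transcripts held 8.66% of the counts of Hspa8, 36.5% of Hspa5 and 10.2% of Cct4. In replicate 2 they held 7.99%, 35.2% and 9.63%. They held under 50% in both libraries for Dnajb4, Dnajc7, Dnajc15 and Dnajc24 as well. For Cct3, Dnajc5, Dnajc10 and Dnajc11, coding transcripts held over 50% of the counts in both libraries. For Dnajc1 they held 49.0% in replicate 1 and 61.5% in replicate 2. For Hspa8, a processed transcript of 727 nt had 859 TPM in replicate 1 and 1186 TPM in replicate 2, while the coding transcript of 2394 nt had 23.2 TPM in replicate 1 and 17.8 TPM in replicate 2. Another coding transcript, of 2019 nt, had 25.3 TPM in replicate 1 and 59.1 TPM in replicate 2, so the coding transcripts did not share a direction. For Hspa5, a transcript of 477 nt typed for nonsense-mediated decay had 816 TPM in replicate 1 and 922 TPM in replicate 2. The split of reads among transcripts is a statistical estimate by the authors.

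A second level was therefore computed from the whole gene's count divided by the length of its longest coding transcript and scaled to 1000000 over all protein-coding genes. The longest was taken among coding transcripts with a consensus coding sequence (CCDS) tag in M21, or among all coding ones where none had it. For Hspb1 this gave 903 nt, although an untagged coding transcript has 930 nt. The level includes the reads that the authors gave to non-coding transcripts, which were most of those of Hspa8, Hspa5 and Cct4. On this coding-length scale Hspa8 had the highest mean, with 769 in replicate 1 and 1263 in replicate 2, and Hspb1 stood at 1017 in replicate 1 and 513 in replicate 2. Their order differed between the libraries, so by this scale they cannot be ranked; Hspb1 was the highest member in replicate 1 and Hspa8 in replicate 2. Hsp90ab1 came next, at 276 in replicate 1 and 411 in replicate 2. Hspa5 ranked lower than by TPM, with 162 in replicate 1 and 186 in replicate 2, below Hspa9 (mean 219) and Hspb8 (mean 203). Cct4 stood at 75.5 in replicate 1 and 76.7 in replicate 2, among the other subunits of its complex. The highest TRiC member was then 3.76 times the lowest in replicate 1 and 5.61 times in replicate 2. The ratio of Hsp90ab1 to Hsp90aa1 widened on this scale, to 25.9 in replicate 1 and 27.4 in replicate 2; most of the Hsp90aa1 TPM lay on a coding transcript of 711 nt with 18.6 TPM in replicate 1 and 28.2 TPM in replicate 2. The ratio of Hspa5 to Hsp90b1 narrowed to 10.8 in replicate 1 and 8.54 in replicate 2.

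**Figure D3:**
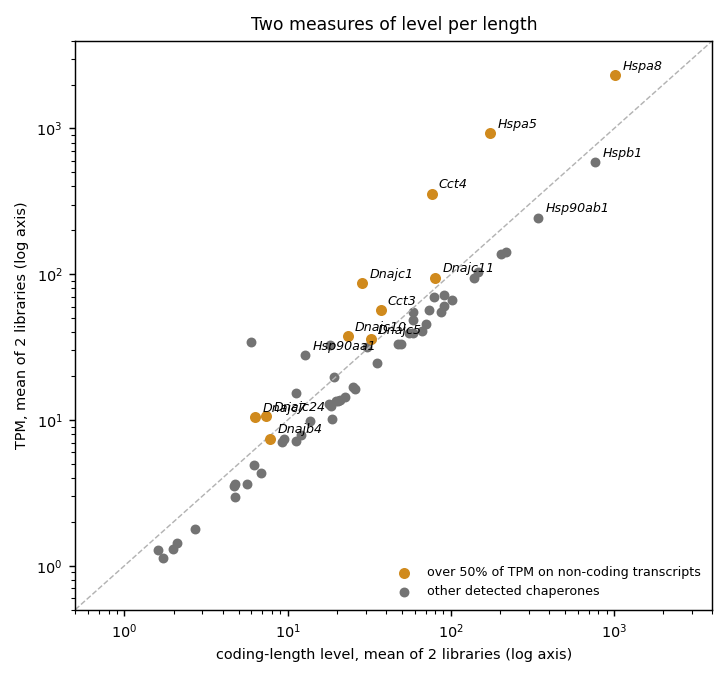
Mean TPM (y axis) against mean coding-length level (x axis), both on log axes, for detected chaperone genes, with orange points for genes that had over 50% of their TPM on non-coding transcripts in both libraries and a dashed line where the scales are equal. Hspa5 (930 TPM against a coding-length level of 174), Cct4 and Hspa8 lie above the line at the high end, and so do Dnajc1 (87.1 against 28.7) and the unlabelled grey point of Dnajc13 (34.2 against 5.96); Dnajc15 is not drawn because it had no coding-length value.

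Most members had the same leading transcript in both libraries. The share over all genes with several transcripts is not given here, so these counts describe the members only. Of the 54 members with at least 2 transcripts and TPM above 0, 48 had the same leading transcript in both libraries, and in 13 of those the leading transcript was not typed as protein coding. These include Hspa4l, whose leading transcript is not in M21 and so has no type. The leading transcript differed in 6 members: Cct6b, Dnajb13, Dnajc6, Hspa13, Hspb11 and Hsph1, and of these only Hspa13 and Hsph1 were detected members. Of 13 annotated pseudogenes of the families, 11 had 0 counts in both libraries; the exceptions were Hspd1-ps3, with about 2 counts in each, and Hsp25-ps1, a copy of Hspb1, with 33.3 counts in replicate 1 and 17.3 in replicate 2.

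The members' promoters were searched for the motifs through which chaperone genes are known to respond to stress. RefSeq start sites on GRCm38.p6, from 250 bases before to 50 after, were on hand for 65 of the 80 members. Hspa8, Hsp90aa1, Hsp90ab1 and Cct4 were among those without one. A heat shock element of 3 units, the binding motif of HSF1 (GAANNTTCNNGAA or TTCNNGAANNTTC, both strands), was found in 4 of 65 members (6.15%), against 90 of 16317 promoters of protein-coding genes (0.552%). An ER stress element (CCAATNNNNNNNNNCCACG or its reverse complement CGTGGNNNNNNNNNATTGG) was found in 3 of 65 (4.62%), against 28 of 16317 (0.172%). The cyclic AMP response element TGACGTCA was in 1 of 65 (1.54%, Dnajc27), against 434 of 16317 (2.66%). A match is a description of letters, and its absence says only that these letters were not in the window. Windows from RefSeq that hold the stress motifs are shown, since few promoters of the genome hold these letters, with the motif in capitals: the stretch between Hspd1 and Hspe1 on the strand of Hspe1, chr1:55088035-55088095 (plus); Dnajb6, chr5:29735828-29735888 (plus); Hspa5, chr2:34772001-34772067 (plus); Hsp90b1, chr10:86705614-86705680 (minus); and Dnajc3, chr14:118937803-118937869 (plus).
Hspe1: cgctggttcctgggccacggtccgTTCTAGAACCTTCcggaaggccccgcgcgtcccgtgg
Dnajb6: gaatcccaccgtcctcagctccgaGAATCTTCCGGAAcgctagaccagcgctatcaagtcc
Hspa5: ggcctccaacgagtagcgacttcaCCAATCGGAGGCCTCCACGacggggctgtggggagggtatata
Hsp90b1: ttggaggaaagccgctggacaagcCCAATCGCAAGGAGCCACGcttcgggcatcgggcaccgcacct
Dnajc3: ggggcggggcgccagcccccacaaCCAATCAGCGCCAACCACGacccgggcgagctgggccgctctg

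The heat shock elements of Hspd1 and Hspe1 are the same letters, since the genes share the stretch between them, and the 13 bases of Hsph1 (TTCTGGAAAGTTC, chr5:149636288-149636300, minus strand) lie after its start. The ER stress elements belong to Hspa5, Hsp90b1 and Dnajc3, all proteins of the ER, and Hsp90b1 holds a second match. The 4 tested members with a heat shock element match had log2 ratios between -0.63 and 0.12, replicate 1 over replicate 2, with a median of -0.34. The 53 tested members without a match had a median of -0.04 and ran from -0.89 to 1.48. The stress-inducible Hspa1a and Hspa1b had no match to these letters, so the split does not part inducible genes from others. These ranges overlap, and the groups were not compared by a test.

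Most members differed by less than 1.5-fold between the replicates. Among the 64 detected members the median fold between libraries was 1.17 by scaled counts, 58 were within 1.5-fold and 63 within 2-fold. For the comparison by counts, 71 members with a summed count of at least 20 were tested among 15824 genes by a two-sided exact binomial test with Benjamini-Hochberg adjustment over all of them. This compares the reads of these libraries, not conditions. At a minimum of 2-fold, 2 members passed, or 2.82% of those tested, against 6.92% of all genes. Both were higher in replicate 1, where 4.35% of all genes passed in that direction, and 0 members were lower in it, against 2.57% of all genes. At a minimum of 1.5-fold, 8 members passed (11.3%), against 15.7% of all genes. Of those, 3 were higher in replicate 1 (4.23%, against 9.28% of all genes) and 5 were lower in it (7.04%, against 6.46%). The median log2 ratio was -0.07 over the members and 0.00 over all genes tested, with 26 members above 0 and 45 below 0. Over all 15824 genes tested, 7835 were above 0 and 7989 below 0.

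**Figure D4:**
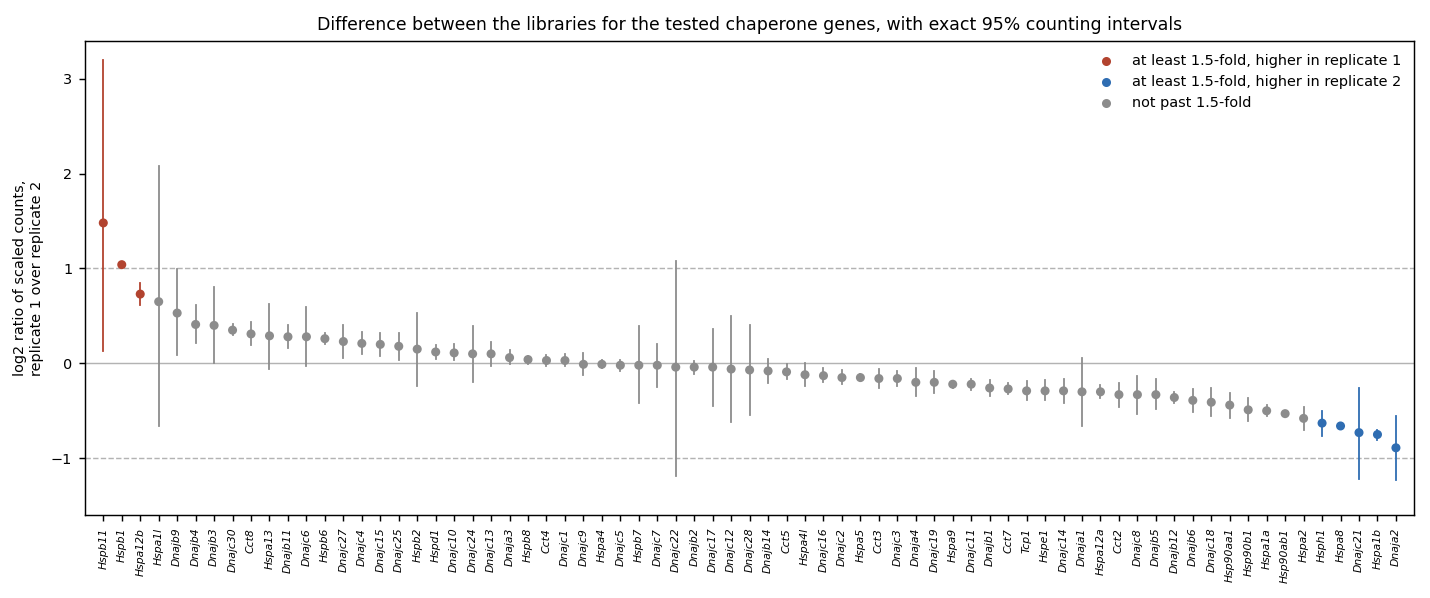
Log2 ratio of scaled counts, replicate 1 over replicate 2 (y axis), for the 71 tested chaperone genes in order of the ratio, with exact 95% counting intervals as vertical lines. Red points are at least 1.5-fold higher in replicate 1 (3 genes), blue points are higher in replicate 2 (5 genes), grey points did not pass, solid and dashed lines mark no difference and 2-fold, and Hspb11 has the widest interval of the coloured points.

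Hspb1 was the member with the clearest difference. It had 19470 counts in replicate 1, against 10513 counts in replicate 2, and the log2 ratio was 1.04 with a 95% interval of 1.00 to 1.07. Hspb11 had a ratio of 1.48 with an interval of 0.13 to 3.20 (adjusted p = 0.0343), from the 16 and 6 counts given above. Hspa12b had a ratio of 0.73 with an interval of 0.62 to 0.85. Adipose markers lay the same way: 7 of 8 were at least 1.5-fold higher in replicate 1, 2 of them at least 2-fold (Cfd and Ucp1), with a summed level of 15512 TPM in replicate 1 and 6959 TPM in replicate 2, and none was at 0. Lep had 7.74 TPM in replicate 1 and 11.8 TPM in replicate 2, the other way. The part of adipose tissue in the Hspb1 value was not tested. Of 6 endothelial markers none passed 1.5-fold, and they summed to 816 TPM in replicate 1 and 712 TPM in replicate 2.

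Of the 5 members at least 1.5-fold lower in replicate 1, Hspa8 and Hspa1b had the most reads. Hspa8 had a log2 ratio of -0.66 with an interval of -0.68 to -0.65, and Hspa1b of -0.75 with an interval of -0.81 to -0.70. Hspa2 (-0.58), Hsp90ab1 (-0.53), Hspa1a (-0.50), Hsp90b1 (-0.49) and Hsp90aa1 (-0.44) lay on the same side without reaching 1.5-fold. All 3 HSP90 genes and 4 of 5 cytosolic HSP70 genes had ratios below 0, as did 7989 of all 15824 genes tested. Hsph1 had a ratio of -0.63 with an interval of -0.77 to -0.50, Dnaja2 of -0.89 with an interval of -1.23 to -0.56, and Dnajc21 of -0.73 with an interval of -1.22 to -0.26. Of 10 cortex markers, 8 had ratios below 0, and 3 of these (Nr5a1, Mc2r and Cyp11b1) were at least 1.5-fold lower in replicate 1, with sums of 31388 TPM in replicate 1 and 38546 TPM in replicate 2. The other 2, Fdx1 and Fdxr, had ratios of 0.46 and 0.22. All 5 hepatocyte markers were at least 2-fold lower in replicate 1, from low levels that summed to 6.19 TPM in replicate 1 and 35.2 TPM in replicate 2, Ttr being at 0 in replicate 1. Of 8 immediate early genes, 1 was at least 1.5-fold higher in replicate 1 and 2 were lower in it, with sums of 524 TPM in replicate 1 and 754 TPM in replicate 2; Nr4a1 had 158 TPM in replicate 1 and 412 TPM in replicate 2. The part of these, and of the difference in sex-linked RNA, in the chaperone values was not tested.

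The scale mattered for the direction of small differences. With the libraries scaled to the spike-in RNAs in place of TMM, the median of all genes moved to -0.43 and that of the members to -0.50. On this scale 66 of 71 members had ratios below 0. The same count over all genes is not given here, so it describes the shift of the scale as much as the members. Relative to that shift Hspb1, at 0.61, Hspb11, at 1.08, and Hspa12b, at 0.31, were still on the side of replicate 1. Members with TMM ratios between 0 and about that shift, such as Cct8 (0.31) and Hspd1 (0.12), change sign with the scaling.

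Most genes that work with the chaperones did not pass 1.5-fold between the libraries. The same held for all genes tested, of which 15.7% passed. Hsf1, the factor that switches on the heat shock genes, had 72.7 TPM in replicate 1 and 74.4 TPM in replicate 2, and none of the 3 tested HSF genes passed 1.5-fold. All 26 co-chaperones of HSP70 and HSP90 were detected, with a median log2 ratio of -0.05; 1 was at least 1.5-fold higher in replicate 1 and 2 were lower in it. Bag1, an exchange factor, had 569 TPM in replicate 1 and 237 TPM in replicate 2. Bag3, the partner of Hspb8, had 198 TPM in replicate 1 and 356 TPM in replicate 2. Stip1, which links HSP70 to HSP90, had 22.3 TPM in replicate 1 and 41.4 TPM in replicate 2. Bag3 and Stip1 thus lay on the same side as Hspa8, Hspa1b and Hsp90ab1, and Bag1 on that of Hspb1.

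Other partner lists were short, and their counts past 1.5-fold were not compared by a test with the 15.7% of all genes. Of 6 prefoldin genes, which hand clients to TRiC, 0 passed at 1.5-fold (median log2 ratio 0.10). Of 20 genes of ER folding and the unfolded protein response, 0 passed (median -0.12), and Hyou1, the exchange factor of BiP, had 62.1 TPM in replicate 1 and 121 TPM in replicate 2 with a count ratio of -0.49. Of 13 mitochondrial partners and proteases, 1 passed, Clpx, higher in replicate 1 (median 0.13). The mitochondrial protease Lonp1 had 446 TPM in replicate 1 and 551 TPM in replicate 2, and Trap1, the mitochondrial HSP90, which the symbol rule does not take, had 157 TPM in replicate 1 and 205 TPM in replicate 2. On the TPM scale Trap1 was above Hspa9, Hspd1 and Hspe1 in each library.

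Levels and base composition were related loosely. Over 72 members with any count and a measured sequence, GC content and coding-length level had a Spearman correlation of 0.29, against 0.37 over 16397 protein-coding genes. All values share the same libraries and depth. The median coding-length level of members was 7.83 below 45% GC, 19.4 between 45% and 50%, 47.7 between 50% and 55% and 62.7 above 55%, against 1.88, 5.65, 12.9 and 28.7 over protein-coding genes in the same ranges. The members' medians were above those of all protein-coding genes in each range. GC content and the log2 ratio between libraries had a correlation of 0.01 over 70 tested members and 0.20 over 14364 protein-coding genes.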

How the data were processed

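Deposited gene and transcript tables of 2 libraries of 1 group were used. Per the file headers and the readme files, each feature on mm10 with the M4 annotation has values of TPM, FPKM and expected count; aligner and quantifier: not given in the sources used here. Expected counts, deposited without normalization, are fractional where the authors split reads; this held for 20 members, whose values are uncertain to that extent. The authors' TPM and FPKM are scaled by length and depth; FPKM, the deposited posterior mean TPM (a second TPM estimate by the authors) and other scalings served as alternatives. The deposited contig and junction tables on mm9 were not used here.

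Identifiers were matched to GENCODE M21 without version (42462 of 43346); the unmatched held 0.112% of the counts of replicate 1 and 0.111% of those of replicate 2. Spike-ins (0.654% of counts for replicate 1, 0.485% for replicate 2) and 26248 numeric identifiers without counts stayed out of sizes, tests and shares. Counts were rounded and scaled with TMM factors from edgeR 4.0.16 (R 4.3.3), and tested in scipy 1.17.1 at an adjusted p of 0.05. Log2 ratios used a prior count of 0.5, and their 95% intervals are exact (Clopper-Pearson). Intervals and floors cover counting error only, because reads copied by PCR do not each stand for a molecule. GC is that of the coding transcript used for the coding-length level.

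The members, gene lists, tests and naming rule were chosen with earlier results of these data known. The rule took the 3 highest members by mean TPM in each family, those past 2-fold, those below 1 TPM in both libraries, those whose TPM and count ratios differed by over 0.5, and near-identical copies; other members were named after their values were seen. The coding-length level was added after seeing the data. The test was tried on simulated counts first.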

Additional observations from a re-analysis of the deposited data

How the results depend on the processing

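The share of all TPM held by the members, 0.650%, was 0.475% as a share of expected counts, which are not per length, and, under alternatives chosen after seeing the data, 0.472% as a share of the coding-length level and 0.347% of the TPM on coding transcripts. It ran from 0.600% to 0.700% with a single library. The number of detected members ran from 53 to 68 over thresholds, units and single libraries (65 and 66 without a replicate), and the steady leading transcripts numbered 44 or 48. Members past 2-fold were 2 with TMM, median-ratio or total-count scaling and without a filter, and 6 with spike-in scaling, all lower in replicate 1. They were 1 (Hspb1) with a summed count of at least 200, so Hspb11 rested on few counts, 8 at a minimum of 1.5-fold, and 0 in edgeR's exact test with an assumed coefficient of variation of 0.2 between animals, in which 244 of 15824 genes passed. The median log2 ratio of the members, -0.07, was -0.50 with spike-in scaling, where that of all genes was -0.43. The 8 members past 1.5-fold kept their direction throughout, and all kept their side of 2-fold with median-ratio scaling. With spike-in scaling 5 of them newly passed 2-fold, Hspb1 (0.61) and Hspb11 (1.08) no longer did, and Hspa12b (0.31) fell short of 1.5-fold. On the log2 scale of TPM + 1, which shrinks low genes, Hsph1 (-1.68) newly passed 2-fold, Dnaja2 (-0.58) lay at 1.5-fold, and Hspb11 (0.49) and Dnajc21 (-0.43) fell short of it. None of these 8 members changed sign, but other members did. Of the 71 tested members, 26 had ratios above 0 with TMM and 5 with spike-in scaling. With TMM, 2 members passed 2-fold on the side of replicate 1 and 0 on that of replicate 2. With spike-in scaling the numbers were 0 and 6. The cause of these changes was not tested beyond what each setting alters. No paired analysis was possible because both libraries belong to 1 group. With 2 libraries no difference between them has a replicate check.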
